A study of Mus musculus with 44 samples.

Results

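The genes described here encode periostin (Postn), the thrombospondins (Thbs1, Thbs2, Thbs3 and Thbs4), tenascin C (Tnc), SPARC (Sparc), spondin 2 (Spon2), fibronectin (Fn1) and osteopontin (Spp1). They were chosen by name, with earlier results of these data known, and probe sets were assigned by the gene symbol in the platform annotation. Counts of called genes among them, and among the lists below, are therefore descriptions and not independent support. Of the 10 genes, 9 were measured, on 13 probe sets, among 12394 genes on 22690 probe sets in all. Spp1 was not analysed here. Where a gene had more than 1 probe set, the one with the largest spread over all arrays was used, whatever the group, and the others (of Thbs1, Thbs2, Sparc and Fn1) are given beside it for the comparison of lines under IgG.

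The samples were left ventricles of 44 mice at 6 months of age, with 1 array per mouse. All mice were on the FVB/N background. The transgenic mice (PKCε mice) expressed a constitutively active rabbit protein kinase C epsilon in cardiomyocytes only, from the mouse Myh6 promoter, and the series presents them as a model of dilated cardiomyopathy. Nontransgenic FVB/N mice (FVB mice) were the controls. From 3 months of age, mice of each line were injected intraperitoneally for 3 months, 2 times a week at 30 mg/kg, with nonimmune mouse immunoglobulin (IgG) or with FG-3149, an antibody against connective tissue growth factor, the product of Ccn2. There were 10 FVB IgG mice (7 female, 3 male), 12 FVB FG-3149 mice (6 and 6), 10 PKCε IgG mice (5 and 5) and 12 PKCε FG-3149 mice (6 and 6). Every mouse thus received an injected antibody protein, and no uninjected mice were part of the design. Replicates were separate animals.

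Matricellular proteins are secreted around cells, where they bind integrins, proteoglycans, growth factors and fibrillar collagens and alter how cells attach, migrate and respond to signals. They are sparse in the adult heart and are known to rise in the wounded, overloaded or fibrotic ventricle. Periostin is made by activated cardiac fibroblasts, binds integrins and helps collagen crosslinking. Tenascin C is a large hexameric protein that loosens cell attachment and appears at sites of active remodelling. SPARC binds collagen and calcium and takes part in procollagen processing. Thrombospondin 1 activates latent TGF-beta and binds CD36 and CD47, and thrombospondin 2 is its closest relative, also a trimer. Thrombospondins 3 and 4 are pentamers. Thrombospondin 4 is also known inside cells, where it acts in the endoplasmic reticulum stress response of heart muscle. Spondin 2 is a secreted relative of the F-spondin family that acts as an integrin ligand and pattern recognition molecule, and fibronectin is an adhesive glycoprotein on which collagen and growth factors assemble.

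The promoter sequences shown are those of the 3 genes with a RefSeq window that are described most fully below. They are the 250 bases upstream of an annotated transcription start in RefSeq (GRCm38.p6), written 5′ to 3′ on the strand of the gene. RefSeq windows were matched for 6 of the 9 measured genes (8 windows, since Postn and Tnc have 2 starts each), and Thbs1, Spon2 and Fn1 were without one. Capitals mark TATAAA, the letters of a TATA box, and CATTCC, the core letters of a TEAD site, on either strand and at any offset. The Postn window lies at chr3:54360857-54361106 on the + strand, before the second of its starts. The Tnc window lies at chr4:64047016-64047265 on the - strand, and the Thbs4 window at chr13:92794819-92795068 on the - strand.
Postn: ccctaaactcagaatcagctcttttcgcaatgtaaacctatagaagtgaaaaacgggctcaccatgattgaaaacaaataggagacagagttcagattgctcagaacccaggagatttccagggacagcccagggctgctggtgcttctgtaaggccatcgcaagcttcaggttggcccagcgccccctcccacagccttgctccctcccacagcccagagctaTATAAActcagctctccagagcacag
Tnc: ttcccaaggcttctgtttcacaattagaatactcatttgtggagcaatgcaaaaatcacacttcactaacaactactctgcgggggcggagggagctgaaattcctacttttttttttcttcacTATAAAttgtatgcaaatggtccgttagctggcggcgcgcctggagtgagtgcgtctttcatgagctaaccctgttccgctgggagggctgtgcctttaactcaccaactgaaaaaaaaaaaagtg
Thbs4: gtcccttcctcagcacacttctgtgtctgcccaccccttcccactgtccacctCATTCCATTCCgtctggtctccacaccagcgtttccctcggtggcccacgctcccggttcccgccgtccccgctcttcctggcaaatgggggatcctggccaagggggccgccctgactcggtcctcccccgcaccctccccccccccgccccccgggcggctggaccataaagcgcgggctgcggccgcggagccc
In the Postn window TATAAA begins at offset -26 from the start, and in the Tnc window it begins at offset -126. The Thbs4 window has no TATAAA. It holds CATTCC at offsets -197 and -192, 2 matches that overlap in 1 base. Its GC content is 70.8%, against 52.0% for the Postn window shown, 44.8% for the Tnc window shown and a median of 52.4% over all 32851 windows. The other Postn window, at chr3:54359017-54359266, has a GC content of 40.4% and no TATAAA. The other Tnc window has a GC content of 51.2%. TATAAA was found in 4 of the 8 windows of these genes and in 12.4% of all windows, and CATTCC in 1 of 8 and in 12.6%. The 2 Tnc windows overlap, the other lying at chr4:64046937-64047186. Their TATAAA, at offsets -126 and -205, is the same site, as is their GGGCGG, at -167 and -246. Counts over the 8 windows are therefore not counts of separate sites. The capitals were picked after 15 motifs had been searched on both strands. The other 13 were TGANTCA (0 of 8 windows, 6.75% of all), CAGACA (4, 17.1%), GTCTAGAC (0, 0.167%), CANNTG (6, 66.2%), GGGCGG (4, 32.7%), TGTGGT (0, 14%), CAGCTG (1, 13%), CCAAT (2, 33.8%), CATATG (0, 3.46%), TGACGTCA (0, 1.55%), TGACG (0, 17.8%), the CArG box (0, 1.47%) and the endoplasmic reticulum stress element (0, 0.113%). The motif CAGCTG is a case of CANNTG, as is the motif written CATATG, the motif TGACG lies within the one written TGACGTCA, and the stress element opens with CCAAT. A match is a description of letters and not a binding site.

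Each value below is the log2 of the deposited ratio of a probe set to its own median over all 44 arrays, so 0 is that median and a level cannot be compared between genes. Differences between groups are log2 differences with the SE of 1 limma fit over all arrays with a term for sex. A gene was called at a Benjamini-Hochberg adjusted p under 0.05 over all 12394 genes, and rose or fell is written only of called genes. The comparisons share arrays: the PKCε IgG arrays enter both the comparison of lines and the antibody comparison, so a high value there raises the first and lowers the second.

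Some arrays stood apart. The atrial marker level (the log2 ratios of the atrial muscle genes Sln, Myl7 and Myl4, averaged) was above 4 on 10 arrays, which were 5 of the 10 FVB IgG arrays (replicates 1, 2, 3, 4 and 9, all female), 1 FVB FG-3149 array (replicate 8), 2 PKCε IgG arrays (replicates 5 and 6) and 2 PKCε FG-3149 arrays (replicates 7 and 9). The lung epithelial genes Sftpc and Scgb1a1 were both above 3 on PKCε IgG replicates 9 and 10, and arrays of high lung markers below means these only. Scgb1a1 without Sftpc was also above 3 in other groups. It was 9.36 on FVB IgG replicate 4, 5.08 on FVB IgG replicate 9 and 4.74 on PKCε FG-3149 replicate 7, and reached 5.17 in FVB FG-3149 mice. The labels say left ventricle for all of them. FVB FG-3149 replicate 11, labelled female, had the Y-linked genes Uty at 3.63 and Kdm5d at 2.21, against at most 0.02 for each in the other 23 female arrays. Comparisons of the 9 genes were refitted without the arrays of high atrial level or lung markers, with 1 exception. The value so obtained is given wherever it changed a call or moved a called value by over 1.5 times. The exception is PKCε FG-3149 against FVB IgG mice, for which no alternative was run. Genes outside the 9 were not followed in these refits.

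Under IgG, 7 of the 9 measured genes were higher in PKCε than in FVB ventricles (Postn, Thbs4, Tnc, Sparc, Fn1, Thbs3 and Spon2), 1 was lower (Thbs2) and Thbs1 was not called. Over all genes, 42.2% were called in this comparison, 20.7% higher and 21.5% lower. The median difference of the 9 genes was 0.97, against -0.05 over all genes. The plot of group values shows every array.

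**Figure D1:**
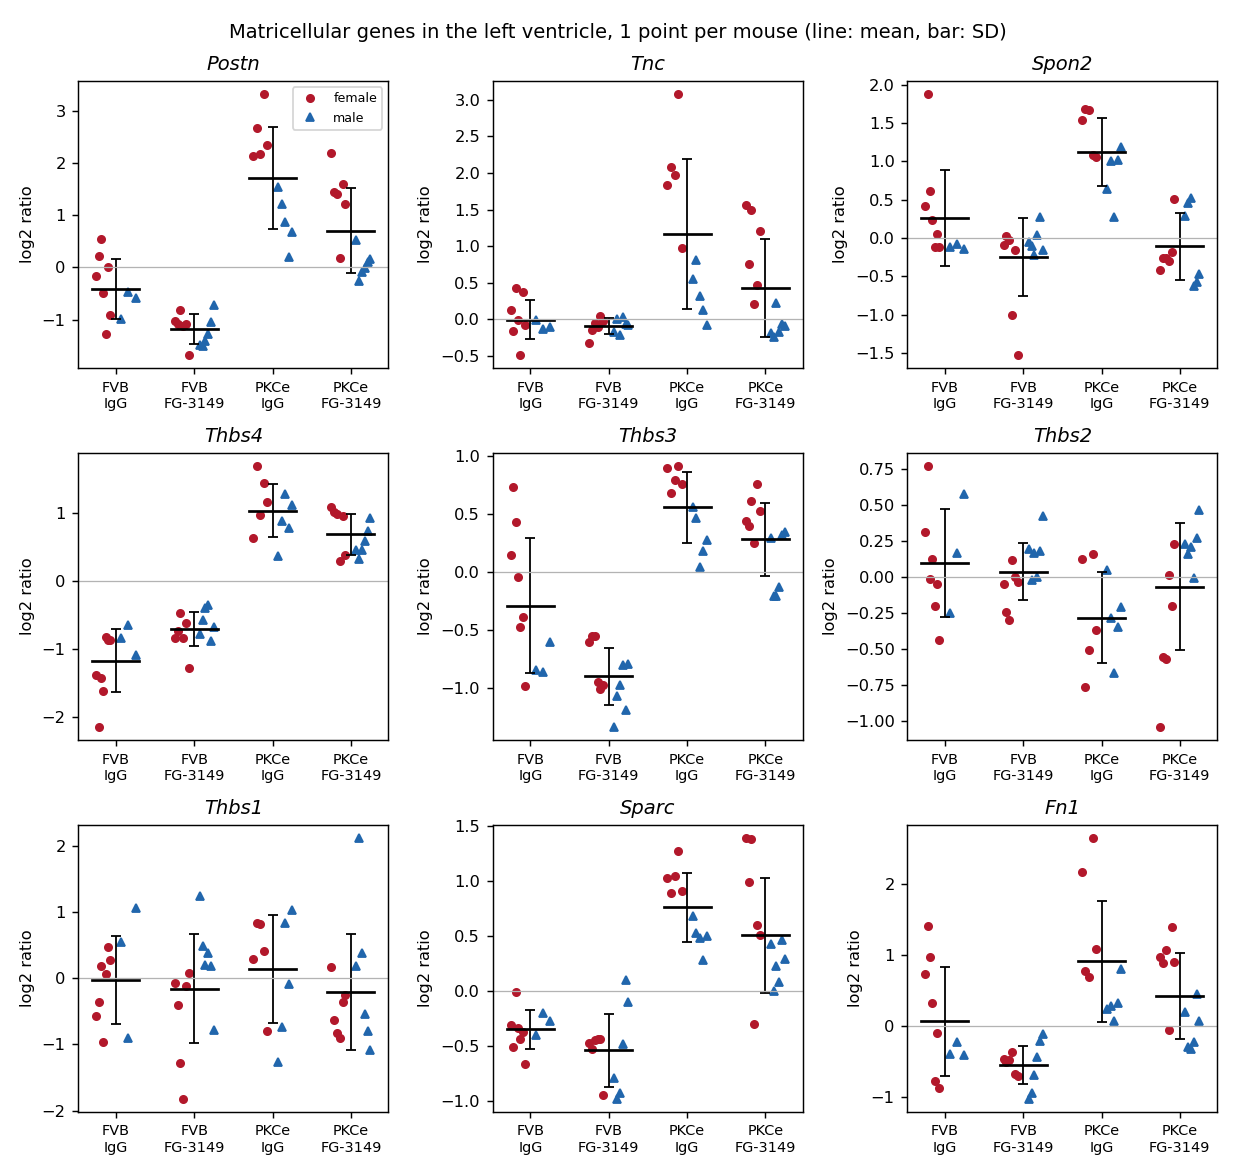
Log2 ratio (to the probe set's median over 44 arrays) of the 9 measured genes in each of the 4 groups, with 1 point per mouse (circles for females, triangles for males), a line at the group mean and a bar of 1 SD. Thbs4 and Sparc of the PKCε IgG mice lie wholly above those of the FVB IgG mice, Thbs1 overlaps in all groups, and Spon2 in PKCε FG-3149 mice lies in the range of the FVB groups.

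Postn ran from -1.28 to 0.55 with a median of -0.48 in FVB IgG mice (mean -0.41 ± 0.57 SD, n = 10) and from 0.20 to 3.32 with a median of 1.84 in PKCε IgG mice (1.71 ± 0.98, n = 10). Only the lowest PKCε IgG value fell within the FVB range, and 9 of 10 lay above every FVB IgG array. The difference was 2.29 ± 0.24 (SE), or 4.91-fold (adjusted p = 3.91e-10), and it was 2.09 (1.16e-08) without the arrays of high lung markers and 2.35 (7.15e-07) without these and those of high atrial level.

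Thbs4 ran from -2.14 to -0.65 (median -0.98, mean -1.17 ± 0.47 SD) in FVB IgG mice and from 0.36 to 1.68 (median 1.04, mean 1.03 ± 0.39) in PKCε IgG mice. The groups did not overlap. That was so for 2 of the 9 genes, Thbs4 and Sparc, and for 4.38% of all genes (2.66% in the higher direction). The difference was 2.20 ± 0.16, or 4.58-fold (adjusted p = 1.95e-14), the smallest SE relative to its size among these genes. Thbs3 ran from -0.98 to 0.73 (median -0.43) in FVB IgG mice and from 0.04 to 0.91 (median 0.62) in PKCε IgG mice, a difference of 0.94 ± 0.13 or 1.91-fold (2.05e-07). All 10 PKCε IgG arrays were above the FVB IgG median and 4 above every FVB IgG array. The FVB arrays inside the PKCε range were among those of high atrial level.

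Tnc ran from -0.49 to 0.43 (median -0.04, mean 0.00 ± 0.27 SD) in FVB IgG mice and from -0.08 to 3.08 (median 0.89, mean 1.17 ± 1.03) in PKCε IgG mice. Here 7 of 10 transgenic arrays lay above all controls, and the other 3 lay among them, so the transgenic group was much the more spread of the pair. The difference was 1.31 ± 0.22, or 2.48-fold (adjusted p = 5.48e-06), and it was 0.42 (0.046) in males fitted alone.

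Sparc ran from -0.66 to 0.00 in FVB IgG mice and from 0.28 to 1.27 in PKCε IgG mice, with no overlap, and differed by 1.16 ± 0.15 or 2.24-fold (adjusted p = 4.5e-08). Its other probe set gave 0.91. Fn1 ran from -0.88 to 1.41 and from 0.06 to 2.65, so most of the ranges were shared, and differed by 0.97 ± 0.25 or 1.96-fold (0.00136). Its other probe set gave 0.61. Spon2 ran from -0.15 to 1.88 in FVB IgG mice (median -0.02, mean 0.26 ± 0.63 SD) and from 0.28 to 1.68 in PKCε IgG mice (median 1.07, mean 1.12 ± 0.44). All 10 transgenic arrays were above the FVB IgG median, while none was above FVB IgG replicate 2, the array with the highest atrial level (8.47). The Spon2 difference was 0.88 ± 0.22, or 1.84-fold (0.00138).

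Among thrombospondins 1 and 2, the trimeric members, neither was higher. Thbs2 ran from -0.44 to 0.78 in FVB IgG mice and from -0.77 to 0.16 in PKCε IgG mice and fell by 0.43 on the log2 scale (SE 0.14, 1.35-fold, adjusted p = 0.0139), with 8 of 10 transgenic arrays below the FVB median. The call was lost in 8 of 21 alternative analyses. Its other probe set differed by -0.12 ± 0.16 (0.56), the mean of both by -0.28 (0.122), and the difference was -0.27 (0.179) without the arrays of high atrial level. Thbs2 stayed called without these and those of lung markers (-0.42, 0.034). Thbs1 ran from -0.97 to 1.05 and from -1.26 to 1.03 and differed by 0.08 ± 0.34 (0.865), with a 95% interval from -0.61 to 0.77. Its other probe set differed by -0.01 ± 0.34 (0.981), and a probe set shared by Pald1 and Thbs1 by 0.20 ± 0.33 (0.637).

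**Figure D2:**
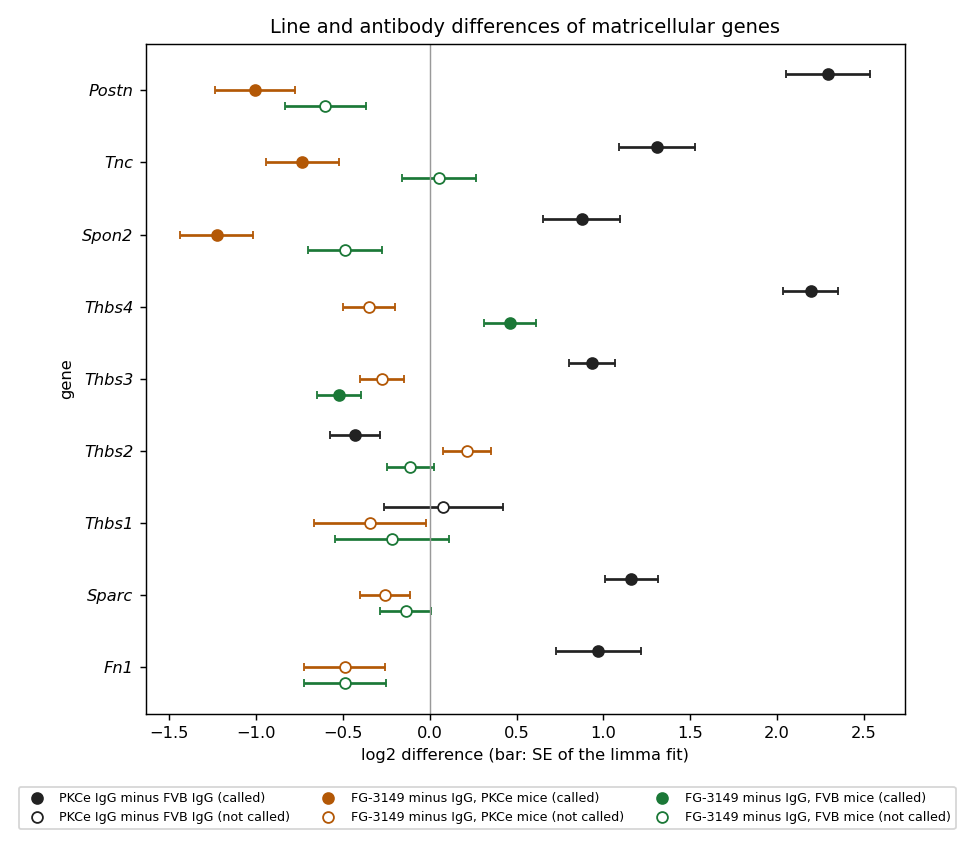
Log2 difference of each measured gene (horizontal axis) for the lines under IgG and for FG-3149 against IgG in PKCε mice and in FVB mice, with bars of 1 SE of the limma fit over 44 arrays and filled points for an adjusted p under 0.05. Postn and Thbs4 have the largest differences between lines under IgG, and Spon2, Postn and Tnc are the called genes of the antibody comparison in PKCε mice.

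The antibody was then compared with IgG within PKCε mice, the question the study's title poses for these transcripts. Of the 9 genes, 3 fell (Spon2, Postn and Tnc) and none rose, while 8.82% of all genes were called, 3.74% lower. The median difference of the 9 genes was -0.35, against 0.02 over all genes. An unadjusted p under 0.05 was reached by 6 of the 9, but the share of all genes at that threshold was not taken. No gene of the 9 had groups without overlap, which held for 0.113% of all genes.

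Spon2 in PKCε FG-3149 mice ran from -0.63 to 0.53 with a median of -0.27 (mean -0.11 ± 0.43 SD, n = 12), beside 0.28 to 1.68 under IgG. All 12 antibody arrays lay below the IgG median and 8 lay below every IgG array. Spon2 fell by 1.23 on the log2 scale (SE 0.21, 2.34-fold, adjusted p = 0.000185). The call held in all alternatives but 1, males fitted alone (-0.89, 0.0653).

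Postn in PKCε FG-3149 mice ran from -0.26 to 2.19 with a median of 0.35 (mean 0.70 ± 0.82 SD), beside 0.20 to 3.32 under IgG. The ranges overlapped widely, with 11 of 12 antibody arrays below the IgG median and 6 below every IgG array. Postn fell by 1.01 on the log2 scale (SE 0.23, 2.01-fold, adjusted p = 0.00406). It differed by -0.82 (0.0389) without the 2 arrays of high lung markers, 1 of which, PKCε IgG replicate 9, held the highest Postn value of all. The Postn call was lost after quantile normalization (-0.78, 0.0797), in males fitted alone (-0.83, 0.0758) and without the arrays of high atrial level or lung markers (-0.79, 0.161).

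Tnc in PKCε FG-3149 mice ran from -0.24 to 1.57 (median 0.22, mean 0.43 ± 0.67 SD), with 9 of 12 arrays below the IgG median and 4 below every IgG array. Tnc fell by 0.73 on the log2 scale (SE 0.21, 1.66-fold, adjusted p = 0.0212). Without PKCε IgG replicate 9, which had the highest Tnc value (3.08), the Tnc difference was -0.56 (0.0635). It was -0.73 (0.071) with no sex term, -0.60 (0.0726) without the arrays of high lung markers and -0.47 (0.132) after quantile normalization. Without the arrays of high atrial level it was -0.80 (0.0513), and with the Gapdh 3′ minus 5′ difference, a measure of RNA quality, as a covariate -0.77 (0.0631). It was -0.64 (0.169) without the arrays of high atrial level or lung markers and -0.43 (0.138) in males fitted alone. The Gapdh difference itself varied with group. It ran from -0.181 to 0.107 in FVB IgG, -0.381 to 0.285 in FVB FG-3149, 0.065 to 0.901 in PKCε IgG and -0.138 to 0.215 in PKCε FG-3149 mice. Fits with this covariate therefore cannot fully separate RNA quality from group.

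The other 6 genes were not called under the antibody in PKCε mice. Thbs4 ran from 0.28 to 1.09 (median 0.65), beside 0.36 to 1.68 under IgG, and differed by -0.35 ± 0.15 (adjusted p = 0.146, 95% interval -0.65 to -0.05). Thbs3 differed by -0.27 ± 0.13 (0.181), Fn1 by -0.49 ± 0.23 (0.199), Sparc by -0.26 ± 0.15 (0.307), Thbs1 by -0.34 ± 0.33 (0.598) and Thbs2 by 0.22 ± 0.14 (0.376). The probe sets of Sparc disagreed on the call: the one not used as the main value differed by -0.37 ± 0.11 with an adjusted p of 0.022 over all probe sets, and the r between the 2 over 44 arrays was 0.94. The second Fn1 probe set differed by -0.46 (0.136), the second Thbs1 probe set by -0.26 ± 0.32 (0.697) and the shared Pald1 and Thbs1 probe set by -0.57 ± 0.31 (0.278). Thbs3 was called when the PKCε groups alone were fitted (-0.27, 0.0394).

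The 3 genes that fell were also compared with FVB mice. Spon2 of PKCε FG-3149 mice differed from FVB IgG mice by -0.35 ± 0.21 (adjusted p = 0.202) and from FVB FG-3149 mice by 0.14 ± 0.20 (0.578, 95% interval -0.27 to 0.54). Postn was above both, by 1.29 ± 0.23 (3.23e-05) and 1.89 (4.23e-09). Tnc was higher by 0.58 (0.0324) than in FVB IgG mice and by 0.52 ± 0.20 (0.0304) than in FVB FG-3149 mice. The last call was lost when any 1 of 6 arrays was left out, with values from 0.45 (PKCε FG-3149 replicate 1) to 0.49 (FVB FG-3149 replicate 10); the others were FVB FG-3149 replicates 5 and 6 and PKCε FG-3149 replicates 3 and 9. It was also lost with no sex term (0.52, 0.0751), and the difference was 1.05 (0.00371) in females and -0.01 (0.972) in males, each sex fitted alone. These comparisons share arrays with the ones above, and those against FVB IgG mice were not refitted in any alternative.

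Under the antibody, 6 of the 9 genes were higher in PKCε than in FVB mice, and none was lower, with 21.5% of all genes higher and 47.0% called. They were Postn, Thbs3 (1.18, adjusted p = 1.48e-10), Thbs4 (1.39, 2e-10), Tnc, Sparc (1.04, 6.3e-08) and Fn1 (0.97, 0.00047, and 0.55 in males fitted alone, 0.0214). The groups did not overlap for Postn, Thbs3 and Thbs4, which was so in that direction for 2.69% of all genes. Spon2, Thbs1 (-0.05) and Thbs2 (-0.10) were not called. Against FVB IgG mice, 5 of 9 were higher in PKCε FG-3149 mice (18.8% of all genes were higher and 33.5% called), among them Thbs3 (0.66, 7.29e-05), Thbs4 (1.85, 1.39e-12) and Sparc (0.91, 5.06e-06), while Fn1 differed by 0.48 ± 0.24 (0.112). How this count depends on the arrays of high atrial level was not tested.

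In FVB mice, where the line carries no transgene, the antibody was followed by a lower level of Thbs3 and a higher level of Thbs4, and the other 7 genes were not called. Over all genes, 4.43% were called higher and 4.57% lower. Thbs3 ran from -0.98 to 0.73 under IgG and from -1.34 to -0.55 (median -0.96) under FG-3149, with all 12 antibody arrays below the IgG median, and fell by 0.52 on the log2 scale (SE 0.13, 1.43-fold, adjusted p = 0.00638). Thbs4 ran from -2.14 to -0.65 under IgG and from -1.28 to -0.35 (median -0.71) under FG-3149, with 11 of 12 antibody arrays above the IgG median, and rose by 0.46 ± 0.15 (1.38-fold, 0.0448). Atrial marker level moved with this comparison: 6 of 7 atrial genes were called lower in the antibody group, with a median difference of -2.77, and 4 of 15 fibroblast markers were lower. Without the 10 arrays of high atrial level, the Thbs3 difference was -0.17 (0.676) and the Thbs4 difference 0.14 (0.839), and neither was called. With the atrial marker level as a covariate they were -0.32 (0.271) and 0.21 (0.71).

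The Thbs4 call in FVB mice was also lost when any 1 of 13 arrays was left out (under IgG replicates 1, 2, 3, 4 and 8, under the antibody replicates 1 to 7 and 11), with differences down to 0.36 (adjusted p = 0.124, without FVB IgG replicate 2). Without FVB IgG replicate 5, Postn was called in FVB mice (-0.72, 0.0342). With all arrays Postn differed by -0.60 ± 0.23 (0.101), Spon2 by -0.49 ± 0.21 (0.153), Fn1 by -0.49 ± 0.24 (0.206) and Tnc by 0.05 ± 0.21 (0.914). Postn was called when the FVB groups alone were fitted (-0.73, 0.0172). Thbs1 differed by -0.21 ± 0.33 (0.756), its other probe set by -0.44 ± 0.33 (0.467) and the shared probe set by -0.34 ± 0.31 (0.574).

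Whether the antibody effect differed between lines was tested directly. Thbs4 was the 1 gene of the 9 called in this test, with an effect lower by 0.81 in PKCε mice (-0.81 ± 0.21, adjusted p = 0.02), and 3.86% of all genes were called, 1.78% with a lower effect in PKCε mice. The call was lost without the arrays of high atrial level (-0.44, 0.379), without those of high lung markers (-0.73, 0.0589) with the atrial level as a covariate (-0.60, 0.0925), and in females (-0.89, 0.2) or males (-0.55, 0.393) fitted alone. Without the arrays of high atrial level or lung markers it was -0.39 (0.533). For Spon2 the effects differed by -0.74 ± 0.30 (0.178), by -0.91 (0.04) without FVB IgG replicate 2 and by -0.96 (0.0296) with array weights. For Tnc they differed by -0.79 ± 0.30 (0.14) and for Postn by -0.41 ± 0.33 (0.623). In the fit of all arrays without weights, the effect was therefore not shown to differ between lines for any of the 3 genes that fell in PKCε mice.

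The 4 group means given here were taken without the sex term, while the calls are from the fit with it. The order of these means was the same for Postn, Thbs3, Tnc, Sparc and Fn1. It ran from FVB FG-3149 (lowest) through FVB IgG and PKCε FG-3149 to PKCε IgG (highest). For Postn the means were -1.18 ± 0.29, -0.41 ± 0.57, 0.70 ± 0.82 and 1.71 ± 0.98 (SD). Of its neighbours in that order, FVB IgG against PKCε FG-3149 and the last pair were called, though the ranges of both pairs overlapped, and the FVB pair was not called. The same held for Tnc, with means of -0.09 ± 0.11, 0.00 ± 0.27, 0.43 ± 0.67 and 1.17 ± 1.03. With the sex term, the FVB pair of Tnc went the other way, with FG-3149 above IgG by 0.05 (adjusted p = 0.914). For Thbs3 the first 2 pairs of neighbours were called and the last was not. For Sparc the means were -0.54 ± 0.33, -0.35 ± 0.18, 0.51 ± 0.52 and 0.76 ± 0.31, and the middle pair alone was called. For Fn1 they were -0.56 ± 0.27, 0.06 ± 0.77, 0.41 ± 0.60 and 0.91 ± 0.86, with no pair of neighbours called. Thbs4 had the FVB groups the other way round, at -1.17 ± 0.47 (IgG) and -0.71 ± 0.25 (FG-3149), below 0.68 ± 0.30 and 1.03 ± 0.39 in the PKCε groups. Spon2 ran from -0.25 ± 0.50 (FVB FG-3149) through -0.11 ± 0.43 (PKCε FG-3149) and 0.26 ± 0.63 (FVB IgG) to 1.12 ± 0.44 (PKCε IgG), and the 3 lower groups were not called against each other. The means of Thbs1 lay between -0.21 and 0.13, with SDs from 0.66 to 0.87.

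Sex was a second source of spread. By 1 sex term fitted over all groups, 4 of the 9 genes were higher in females and none was lower, while 8.67% of all genes were higher and 15.8% called. That term does not give the difference in each group. Postn was higher by 0.85 ± 0.17 (adjusted p = 0.000444), Tnc by 0.70 ± 0.15 (0.00125), Fn1 by 0.64 ± 0.17 (0.00651) and Thbs3 by 0.45 ± 0.09 (0.000629). The Fn1 call was lost without the arrays of high atrial level or lung markers (0.40, 0.0539). Sparc (0.25, 0.0877) and Thbs2 (-0.25, 0.0754) were not called with all arrays. Sparc was called without FVB FG-3149 replicate 8 (0.29, 0.0385) or PKCε FG-3149 replicate 7 (0.30, 0.0251), and without the arrays of high atrial level (0.37, 0.0195) or these and those of lung markers (0.35, 0.0475). Thbs2 was called without FVB IgG replicate 2 or 6 or PKCε IgG replicate 6 or 9, with values from -0.29 to -0.27, without the arrays of high atrial level (-0.40, 0.00877), without these and those of lung markers (-0.47, 0.00145), and with the atrial level (-0.30, 0.00729) or the Gapdh difference (-0.28, 0.048) as a covariate.

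Postn ran from 2.13 to 3.32 in the 5 females and from 0.20 to 1.54 in the 5 males of the PKCε IgG group. Tnc ran from 0.98 to 3.08 and from -0.08 to 0.81. Every female was above every male for both genes, as for Thbs3 and Sparc, so 4 of 9 genes had sexes without overlap in that direction, beside 5.08% of all genes. Under the antibody the sexes overlapped: Postn ran from 0.17 to 2.19 in females and from -0.26 to 0.52 in males, and Tnc from 0.21 to 1.57 and from -0.24 to 0.23. There, 5 of 6 females were above every male for Postn, Thbs3, Tnc, Sparc and Fn1. In FVB mice the sexes were close for Tnc, with means of 0.03 ± 0.32 (7 females) and -0.08 ± 0.07 (3 males) under IgG. In FVB FG-3149 mice the female and male means were -1.13 and -1.24 for Postn and -0.10 and -0.08 for Tnc. They were -0.53 and -0.58 for Fn1 and -0.77 and -1.03 for Thbs3.

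Within females the line difference under IgG was called for 7 of 9 genes, all higher (42.3% of all genes were called and 20.3% higher), with Postn at 2.82 ± 0.27, Thbs4 at 2.48, Tnc at 1.96 ± 0.21, Sparc at 1.41, Fn1 at 1.23, Spon2 at 0.99 and Thbs3 at 0.89. All 5 FVB IgG arrays of high atrial level were female, and without the arrays of high atrial level the female difference was 2.13 for Fn1, 1.51 for Thbs3 and 1.49 for Spon2. Without these and those of lung markers it was 1.56 for Fn1, 1.47 for Thbs3 and 1.79 for Spon2, and after quantile normalization 0.79 for Fn1, each of them called. Within males it was called for 4 of 9, all higher (14.5% of all genes were called and 7.21% higher), which were Thbs4 (1.74, adjusted p = 2.34e-06), Postn (1.58 ± 0.33, 0.000734), Thbs3 (1.07, 0.000405) and Sparc (0.78, 0.0169). Spon2 in males differed by 0.94 (0.051) and passed the threshold when any 1 of 10 arrays was left out: PKCε IgG replicate 3 (1.08, 0.0322), FVB IgG replicates 2, 5 and 10, FVB FG-3149 replicates 10 and 12, and PKCε FG-3149 replicates 5, 6, 9 and 10 (0.94 without each of these, adjusted p from 0.0175 to 0.0496). The Sparc call in males was lost without FVB IgG replicate 6 (0.73, 0.0819), and only 3 FVB IgG mice were male. Without the arrays of high atrial level or lung markers, Tnc (0.53, 0.0499) and Fn1 (0.57, 0.0248) were called in males too. Spon2 was called in males after quantile normalization (1.14, 0.0104) and with the mean of probe sets (0.94, 0.0487), and Thbs2 with the atrial level as a covariate (-0.52, 0.0205). In a fit of the male arrays alone, Spon2 (0.94, 0.0114), Fn1 (0.68, 0.0284) and Tnc (0.42, 0.046) were called as well. The count in males thus depended on whether the female arrays shared the fit.

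The difference between the sexes in the line effect itself was called for none of the 9 genes by limma with all arrays, and for 0.0807% of all genes. Of the 9, 4 had an unadjusted p under 0.05, with no share over all genes taken. Tnc came nearest, at 1.54 ± 0.34 more in females (adjusted p = 0.0652). The Tnc difference was called when any 1 of 6 arrays was left out, with values from 1.54 to 1.79 (0.00221, without PKCε IgG replicate 10), and was 1.51 (0.00942) without the arrays of high lung markers. The arrays were FVB IgG replicate 3, PKCε IgG replicates 2 and 10, and PKCε FG-3149 replicates 1, 3 and 7. It was also called without the arrays of high atrial level (1.78, 0.0193), without these and those of lung markers (1.78, 0.00291) and with the Gapdh covariate (1.68, 0.0239), and was 0.82 (0.927) after quantile normalization. The Postn difference was 1.24 ± 0.43 (0.402) with all arrays, and was called at 2.08 (0.00584) without the arrays of high atrial level and at 1.88 (0.0243) without these and those of lung markers. Fn1, at 0.55 (0.774) with all arrays, was called at 1.56 (0.0403) without the arrays of high atrial level. Leaving out the high atrial arrays removes 5 of the 7 FVB IgG females.

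The antibody comparison in PKCε females called the same 3 genes, Spon2 (-1.56 ± 0.28, adjusted p = 0.000284), Tnc (-1.04 ± 0.22, 0.00191) and Postn (-1.19 ± 0.28, 0.00395), beside 10.3% of all genes (4.30% lower). In PKCε males none of the 9 was called and 0.0565% of all genes were, with Spon2 at -0.89 ± 0.28 (0.244), Postn at -0.83 (0.326), Tnc at -0.43 (0.725) and Thbs2 at 0.51 (0.428). An unadjusted p under 0.05 was reached by 3 of the 9 in males. The difference between the sexes was not called by limma for any of the 9 (1 had an unadjusted p under 0.05) and was for 0.0161% of all genes, with Spon2 at -0.67 (0.696) and Tnc at -0.61 (0.643). For neither unadjusted count was the share over all genes taken. In females the Postn call was lost without the arrays of high lung markers (-0.99, 0.0786), both of which are PKCε IgG females, without these and those of high atrial level (-0.77, 0.264) and after quantile normalization (-0.55, 0.57). The Tnc call in females was lost after quantile normalization (-0.40, 0.488). Thbs4 was called in females with the Gapdh covariate (-0.69, 0.038). In males Spon2 was called after quantile normalization (-1.11, 0.0228) and Thbs2 with the atrial level as a covariate (0.65, 0.0219).

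**Figure D3:**
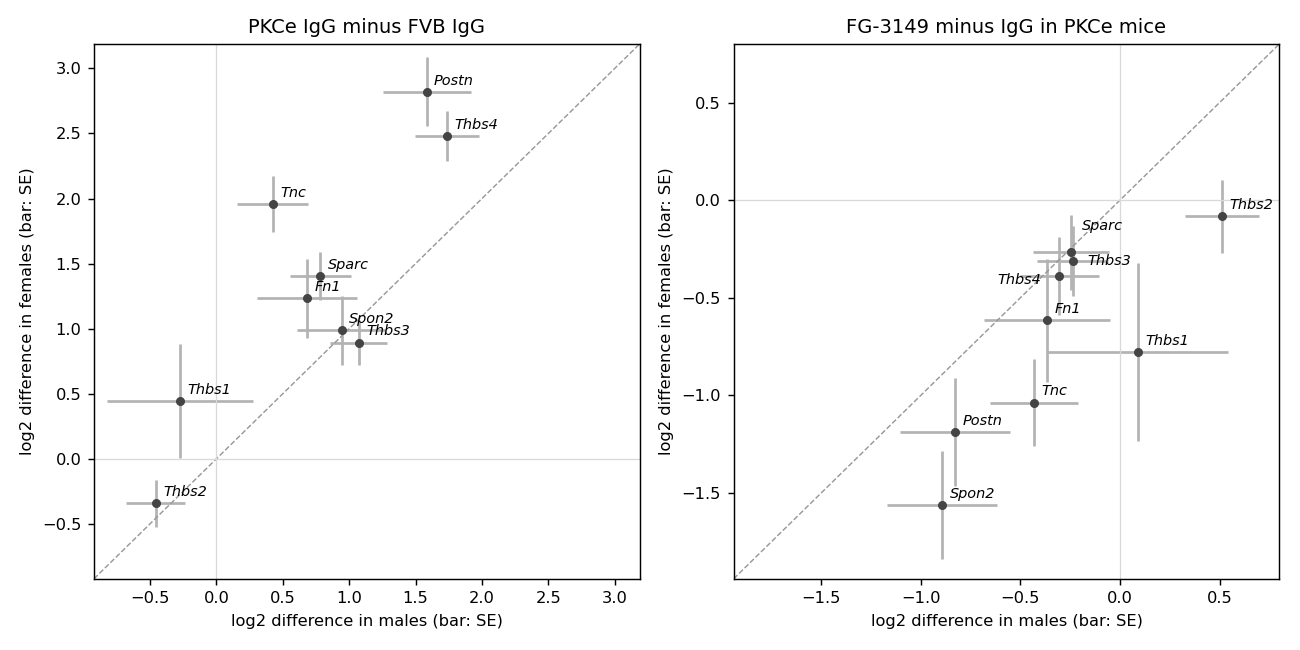
Log2 difference of each gene in females (vertical axis) against males (horizontal axis), for the lines under IgG (left) and for FG-3149 against IgG in PKCε mice (right), with bars of 1 SE and a dashed line of equality. Tnc lies farthest above the line on the left, at 1.96 in females and 0.42 in males.

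Cell type markers were read beside these values. In bulk tissue, fewer cells of a type and less RNA per cell cannot be told apart. The mean level of 15 fibroblast markers was -0.23 ± 0.44 (SD) in FVB IgG, -0.67 ± 0.18 in FVB FG-3149, 0.54 ± 0.33 in PKCε IgG and 0.32 ± 0.30 in PKCε FG-3149 mice, in the order of Postn, Thbs3, Tnc, Sparc and Fn1. Of the 15, 11 were higher and none lower in PKCε IgG than in FVB IgG mice, among them Mfap5 (1.99), Col15a1 (1.41) and Pi16 (1.38, other probe set 0.16). In PKCε mice given the antibody 3 fell and 1 rose, with Pi16 at -0.67 (other probe set -0.21), Mfap5 at -0.66, Pcolce at -0.54 and Scara5 at 0.47 (other probe set 0.03). Of 13 ventricular cardiomyocyte markers, 2 were higher and 6 lower in PKCε IgG mice, and 3 were higher under the antibody in PKCε mice. The part of these markers in the results was not tested.

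Counts for the other markers under IgG, higher and lower in PKCε mice, were 4 and 0 of 19 for macrophages, 2 and 0 of 12 for endothelium, 1 and 4 of 10 for smooth muscle and pericytes, 0 and 6 of 8 for adipocytes, 1 and 0 of 8 for epicardium, and 1 and 2 of 7 for atrial muscle. None of 8 platelet and none of 8 lung epithelial markers was called. The mean adipocyte level was 1.23 ± 1.17 (SD) in FVB IgG mice and -0.18 ± 0.46 in PKCε IgG mice. These counts were not taken without the arrays of high atrial level. Under the antibody in PKCε mice, 1 endothelial marker was lower and 3 smooth muscle and pericyte markers were higher. No macrophage, platelet, epicardial, lung, adipocyte or atrial marker was called in that comparison. Defining markers could not be read as present or absent, since the ratios keep no brightness.

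Between mice of the same group and sex, several of these genes moved with the fibroblast markers. Deviations of the 44 arrays from the means of the 8 cells of group and sex gave r = 0.84 for Thbs3 and the fibroblast level (Spearman's rho 0.76, and r = 0.74 without the 2 arrays farthest from the median of the level). For Fn1 the r was 0.82 (rho 0.82, 0.76 without 2 arrays), for Postn 0.75 (0.70, 0.76) and for Sparc 0.56 (0.66, 0.64). Each of these 4 had a permutation p of 1e-05 for r and for rho, the smallest that 100000 permutations can give, and an adjusted p of 0.000129 over 90 relations of these genes with marker lists. The same genes also moved with the mean level of 19 macrophage markers. There r was 0.74 for Fn1 and 0.67 for Postn (permutation p = 1e-05, adjusted p = 0.000129 each), 0.62 for Thbs3 (0.0002, 0.00164) and 0.38 for Sparc (0.00041, 0.00298). Among 36 pairs of members, Thbs3 and Fn1 (r = 0.74, rho 0.70, 0.62 without 2 arrays) and Postn and Sparc (0.69, 0.68, 0.65) had a permutation p of 1e-05 each (adjusted p = 0.00018). The genes of 1 array share its tissue composition. Postn was lower where cardiomyocyte markers were high (r = -0.63, rho -0.62, permutation p = 2e-05 and 7e-05, adjusted p = 0.0002, r = -0.63 without 2 arrays), as was Fn1 (-0.62, -0.58, 4e-05 and 0.00019, 0.00036, -0.59).

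The mean level of all 7 atrial muscle markers went with Thbs2 and Thbs4 in opposite directions. Over the same deviations, Thbs2 had r = 0.74 (permutation p = 2e-05, adjusted p = 0.0002), rho = 0.73 (1e-05) and r = 0.68 without 2 arrays. Thbs4 had r = -0.56 (0.00135, adjusted p = 0.00759), rho = -0.52 (0.00195) and r = -0.51 without 2 arrays by the same permutation test. Fn1 (r = 0.60, permutation p = 0.00123, adjusted p = 0.00738, rho = 0.53, 0.55 without 2 arrays) and Thbs3 (0.53, 0.00378, 0.0179, 0.37, 0.41) were higher where the atrial level was higher. These relations were not particular to atrial muscle. The mean level of 8 epicardial and mesothelial markers had r = 0.71 with Thbs2 (permutation p = 1e-05, adjusted p = 0.000129) and -0.60 with Thbs4 (0.00099, 0.00636). It had r = 0.71 with Fn1 (0.00043, 0.00298) and 0.60 with Thbs3 (0.00227, 0.0113). Thbs2 and Thbs4 themselves had r = -0.64 (permutation p = 8e-05, adjusted p = 0.00096), rho = -0.56 (0.00107) and r = -0.57 without 2 arrays. In FVB IgG mice the 4 arrays with an atrial marker level above 7 held the 4 lowest Thbs4 values, with replicate 2 at -2.14. Without the 10 high arrays the line difference under IgG stayed called for Thbs4, as it did for the other 6 genes that were higher.

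**Figure D4:**
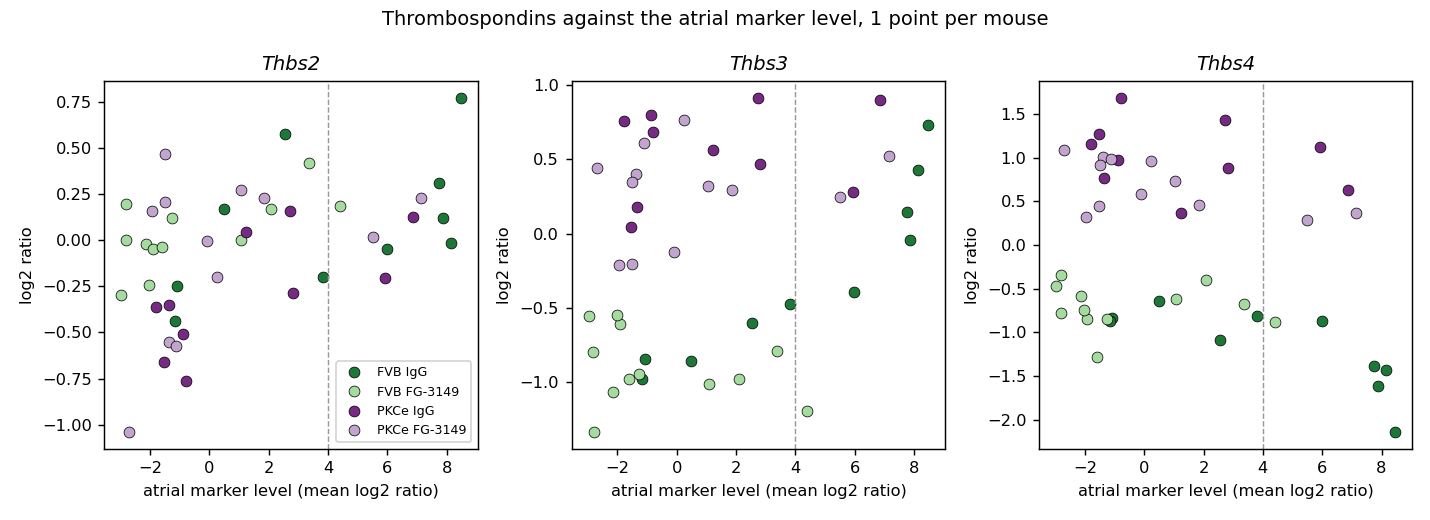
Log2 ratio of Thbs2, Thbs3 and Thbs4 (vertical axes) against the atrial marker level (horizontal axis, the log2 ratios of Sln, Myl7 and Myl4 averaged) on 44 arrays, coloured by group, with a dashed line at 4. Of the 10 arrays right of the line, 5 are FVB IgG mice, and among these Thbs4 is as low as -2.14.

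The genes whose pattern was most like each member over the 44 arrays were picked by the highest Pearson's r among 12393 other genes. For Postn they were Fstl1 (0.98), Col5a2 (0.98) and Mfap5 (0.97), and for Sparc Col1a1 (0.95), Olfml3 (0.95) and Col6a1 (0.95), so collagen chains and fibroblast matrix genes. Thbs3 was most like Antxr1 (0.97), Pcolce2 (0.96) and Sdc2 (0.95), and Fn1 most like Bace2 (0.94), Sfrp2 (0.94) and Tmem176a (0.94). Thbs4 was most like Pla1a (0.96), Prkar1a (0.94), which encodes a regulatory subunit of protein kinase A, and Otulin (0.94). Tnc had lower values, with Nbl1 (0.88), Grk5 (0.87) and Dio2 (0.86), and Spon2 lower still, with Klhl13 (0.81), Unc5c (0.80) and Rhoj (0.78). Thbs1 was most like the early response gene Egr2 (0.77), Ch25h (0.68) and Ccn1 (0.65), and Thbs2 most like Efemp1 (0.83), Inmt (0.79) and Ppl (0.73).

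Related genes from lists by role were counted in the same fit, where 42.2% of all genes were called under IgG and 8.82% under the antibody in PKCε mice. Of 28 further matricellular and adhesive glycoproteins measured, 17 were higher and 3 lower in PKCε IgG than in FVB IgG mice (median 0.52). They included Fstl1, a SPARC relative (1.58 ± 0.14), Fbln2, a fibulin (1.57 ± 0.13), Smoc2, another SPARC relative (1.40 ± 0.09), and Vwa1 (1.15). Under the antibody in PKCε mice 6 fell and none rose, among them Fstl1 (-0.64 ± 0.14, adjusted p = 0.00178), Fbln2 (-0.58 ± 0.12), Emilin1 (-0.41, other probe set -0.08) and the galectin Lgals1 (-0.38 ± 0.06, 6.65e-05). In FVB mice under the antibody 2 were higher and 5 lower.

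The CCN genes encode another matricellular family, to which the antibody's target belongs. Under IgG, 2 of 5 measured were higher in PKCε mice and 3 lower: Ccn5 at 1.38 ± 0.26, Ccn2 at 0.74 ± 0.23 (adjusted p = 0.00756), Ccn3 at -1.25 ± 0.24 and Ccn4 at -0.71 among them. None of the 5 was called under the antibody in PKCε mice, where Ccn2 differed by -0.35 ± 0.22 (0.363). In FVB mice Ccn2 differed by -0.52 ± 0.22 (0.135), and 2 of the 5 were called lower. The mean level of the 5 was 0.44 ± 0.60 (SD) in FVB IgG mice, the group with most arrays of high atrial level. It was -0.21 ± 0.14 in FVB FG-3149 mice and 0.30 ± 0.51 in PKCε IgG mice. The part of those arrays in the CCN values was not tested.

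Of 34 receptors and binding partners, 15 were higher and 7 lower in PKCε IgG mice (median 0.16). The integrin beta 5 gene Itgb5, whose protein forms part of a periostin receptor, was higher by 1.28 ± 0.09, and Itga9, the alpha chain of a tenascin C receptor, by 1.28 ± 0.12, with its other probe sets between -0.25 and 0.96. Lrp1, which takes up thrombospondins, was higher by 1.21 ± 0.14, and the syndecan Sdc2 by 0.70, with other probe sets between 0.41 and 0.55. Given the antibody, PKCε mice had more Vldlr, by 0.38 ± 0.09 (adjusted p = 0.00334, other probe sets between 0.10 and 0.35), while Stab1 (-0.44), a scavenger receptor for SPARC, and Itga9 (-0.36, other probe sets between -0.11 and -0.02) fell.

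Of 20 processing and partner enzymes, 14 were higher and 2 lower in PKCε IgG mice (median 0.59). Loxl3 (1.32 ± 0.14) and Loxl1 (1.30), of the lysyl oxidase family, and Mmp2 (1.16), a gelatinase, rose. Bmp1, whose protease activates lysyl oxidase with the help of periostin, was at 0.85, with other probe sets between -0.17 and 0.06. With the antibody 6 fell in PKCε mice and none rose: Timp1, a metalloproteinase inhibitor (-1.30 ± 0.26, adjusted p = 0.00118), Adamts4, a proteoglycan-cleaving protease (-0.84 ± 0.13, 4.33e-05), Loxl3 (-0.78 ± 0.13) and Plat (-0.52) had the lowest p.

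Of 32 upstream regulators, 16 were higher and 2 lower in PKCε IgG mice (median 0.38). Meox1, a transcription factor of activated fibroblasts, was higher by 2.24 ± 0.18, Tgfb2 by 1.77 ± 0.15, Sox9 by 1.32 and Twist1, a known activator of Postn, by 1.04. Under the antibody in PKCε mice 6 fell and none rose, among them Meox1 (-0.82 ± 0.17), Il6 (-1.09 ± 0.28), Tgfb3 (-0.60) and Twist1 (-0.38).

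The endoplasmic reticulum stress genes were read beside Thbs4. Of 22, 6 were higher and 4 lower in PKCε IgG mice (median 0.10), a share called close to the 42.2% of all genes. Calr was at 0.44, Dnajb11 at 0.34 and Pdia4 at 0.45 (other probe set -0.02), while Herpud1, a target of this response, fell by 0.64 on the log2 scale (-0.64 ± 0.07). Under the antibody in PKCε mice 3 rose, which were Herpud1 (0.45 ± 0.07, adjusted p = 2.73e-05), Dnajb9 (0.27) and Canx (0.25, other probe sets between 0.06 and 0.08), and none fell.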

How the data were processed

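RNA was extracted from frozen left ventricles and labelled from 250 ng per mouse for Affymetrix 430A 2.0 arrays, per the labels' protocols. Per the submitters' design text, the authors ran GCRMA (its version is not given in the sources used here) and scaled each gene by its median in GeneSpring GX 7.3.1. The deposited values are linear ratios, and the median over the 44 arrays lay within 0.001 of 1 for all 22690 probe sets. Ratios ran from 0.01 to 1104, with 25 values at the lowest and none of these in the genes described, and array medians ran from 0.954 to 1.032. The ratios carry neither brightness nor detection calls. Signal over background is therefore unknown, and precision is limited by how many arrays there are. A ratio to a probe set's median leaves differences between groups as they were and removes differences between genes.

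Log2 of each ratio was taken with no pseudocount or filter. Probe sets were named from the platform annotation: 20393 had 1 gene, 691 several and 1606 none (64 control probe sets among them), and for 4958 genes with more than 1 the probe set with the largest SD was used. Groups were compared by lmFit and eBayes of limma 3.58.1, run in R 4.3.3, as 1 fit of 4 groups plus a sex term to all arrays, which share 1 estimate of the spread. Comparisons by sex used 8 cells of group and sex. Tests are two-sided. Permutation tests of relations used Python 3.11.15 and numpy 2.4.6. The fit was tested on simulated data.

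The genes and lists were chosen with earlier results of these data known. The named genes are all 10 of the group, Ccn2, up to 4 called genes of lowest p of each list, and the 3 genes most like each member. Calls were made at an adjusted p under 0.05. Alternatives were sex terms, replicate numbers, scaling, filters, floors and pseudocounts, probe set rules, robust fits, thresholds, arrays of high atrial or lung markers, a 3′ to 5′ Gapdh covariate, each sex, and each array left out. Leaving out atrial and lung arrays together and using the atrial level as a covariate were chosen after seeing the data. So were the 2 motifs printed in capitals. The labels name no hybridisation batch.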

Additional observations from a re-analysis of the deposited data

Results flagged for a closer look

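Spon2 had 1 value far from the rest of its group, FVB IgG replicate 2 at 1.88, where the other 9 arrays ran from -0.15 to 0.61. The same array had the highest atrial marker level, at 8.47, and the lowest Thbs4, at -2.14. Of 18 groups of 10 arrays examined in this way 1 was marked, and chance marks about 1 in 20.

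The antibody effect on Thbs4 differed between lines by the test of the difference itself, at -0.81 ± 0.21 (adjusted p = 0.02). Thbs4 differed by -0.35 in PKCε mice and by 0.46 in FVB mice. Without the 10 arrays of high atrial level the difference between lines was -0.44 (0.379).

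FVB FG-3149 replicate 11, labelled female, had Xist at -0.71, where the other female arrays were at -0.20 or above and male arrays at -2.69 or below. Without this array, Thbs4 was not called in FVB mice (0.45, adjusted p = 0.0685), Thbs3 was (-0.49, 0.0151), and the count of called genes was the same in every other comparison.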

How the results depend on the processing

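Of 75 results for single genes, alternatives other than leaving out 1 array gave 1236 values: 1120 kept direction and side of the threshold, 55 lost the call, 20 gained it and 41 changed sign, 1 of them of a called value (Tnc, PKCε against FVB under the antibody, in males alone). Genes with an unadjusted p of 0.05 or more in a sex comparison were left out after the totals were seen; with them the totals were 108, 1566, 1407, 55, 24 and 80, and the added gained calls are given above beside their comparisons. The cause of each change below was not tested. The ratios keep no signal over background, so what dim probe sets limit is unknown.

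Counts that changed by no more than 1.5 times are not listed here. Called genes under the antibody in PKCε mice (3) numbered 1 after quantile normalization, 0 in males alone and 1 without atrial and lung arrays. Tnc alone lost its call with no sex term, at an adjusted p under 0.01, without atrial arrays, without lung arrays and with the Gapdh covariate. In FVB mice (2) they numbered 1 with centred arrays, a pseudocount, array weights, an adjusted p under 0.01, the Gapdh covariate or females alone, and 0 at 1.5-fold, without atrial arrays, in males alone, without atrial and lung arrays or with the atrial covariate. For the difference between lines (1) they numbered 2 with array weights and 0 at an adjusted p under 0.01, without atrial or lung arrays or both, in either sex alone and with the atrial covariate. For females minus males in the line effect (0) they numbered 3 without atrial arrays, 1 without lung arrays, 1 with the Gapdh covariate and 2 without both kinds of array. The antibody count in PKCε females (3) was 1 after quantile normalization, and in males (0) 1 after it and 1 with the atrial covariate.

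Leaving out 1 array gave 8 to 8 called genes for the lines under IgG, 2 to 3 for the antibody in PKCε mice, 1 to 3 in FVB mice, 5 to 6 for the lines under the antibody, 1 to 2 for the difference between lines, 4 to 5 for sex, 7 to 7 and 3 to 5 for the lines in females and males, 0 to 1 for their difference, and 3 to 3, 0 to 0 and 0 to 0 for the antibody in PKCε females, males and their difference.

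The replicate numbers did not pair the arrays: over 60 pairs of arrays with the same number in different groups, deviations had r from -0.30 to 0.30 and 15 were over 0.1. With a replicate block 8, 3, 1, 6 and 1 genes were called for the lines under IgG, the antibody in PKCε mice, the antibody in FVB mice (2 without the block), the lines under the antibody and the difference between lines; Thbs4 in FVB mice was at 0.46 (adjusted p = 0.086).

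Signs that turned were all but 1 of uncalled values. Lines under IgG, Thbs1: -0.009 (quantile), -0.176 (without atrial arrays), -0.275 (males), -0.16 (without atrial and lung arrays), and -0.075 to 0.243 leaving out 1 array. Antibody in PKCε mice: Thbs2 -0.083 (females), Thbs1 0.09 (males). Antibody in FVB mice: Tnc -0.087 (no sex term), -0.08 (these groups only), -0.03 (without atrial arrays), -0.129 (females), -0.001 (males), -0.019 (without atrial and lung arrays), and -0.021 to 0.117 leaving out 1 array; Thbs2 0.11, 0.121 and 0.181 (without atrial arrays, without both, atrial covariate); Thbs1 0.054 and Spon2 0.081 (males). Lines under the antibody: Thbs1 0.056 (mean of probe sets), 0.013 (without atrial arrays), 0.157 (Gapdh), 0.138 (females), 0.014 (without both), and -0.25 to 0.063 leaving out 1 array; in males Thbs2 0.062, Tnc -0.007 (adjusted p = 0.972) and Spon2 -0.031. Difference between lines: Fn1 0.127 (no sex term), 0.092 (quantile), 0.04 (array weights), 0.183 (without lung arrays), 0.057 (Gapdh), 0.155 (females), 0.098 (without both), and -0.124 to 0.175 leaving out 1 array; Sparc 0.002, 0.119 and 0.164 (quantile, without atrial arrays, without both); Thbs1 0.022 (mean of probe sets), 0.189 (without atrial arrays), 0.036 (males), 0.174 (without both), and -0.351 to 0.024 leaving out 1 array; Thbs3 -0.085 and -0.047 (without atrial arrays, without both).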
